A study of Arabidopsis thaliana with 12 samples.

Results

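Rosette leaves of unheated atcyp18-2 plants were compared with those of unheated wild-type (WT) plants by RNA-seq, in 6 of the 12 samples of the series. All plants were Arabidopsis thaliana of the ecotype Col-0, grown on soil for 3 weeks at 23 °C under 16 h of light and 8 h of dark. The first group holds 3 atcyp18-2 libraries without heat and the second 3 WT libraries without heat. The other 6 libraries, 3 of atcyp18-2 and 3 of WT after 1 h at 47 °C, entered the fit and serve below as a side comparison. What kind of allele atcyp18-2 is, and whether the 3 libraries of a group came from separate plants, is not stated in the labels. The p-values are thus set by how far these libraries scatter, and part or all of that scatter may be technical. A gene was measured by its annotated transcript with the largest total over the 12 libraries, which gave 23160 of the 23174 genes in the deposited table. Of these, 16629 had enough reads to be fitted.

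Cyclophilins are peptidyl-prolyl isomerases, which turn the bond before a proline in a protein between its cis and trans forms. AtCYP18-2, encoded by AT2G36130, is a nuclear cyclophilin and the plant counterpart of PPIL1, a protein of the human spliceosome. The comparison asks which transcripts of an unheated leaf differ between mutant and WT, and splicing itself was not analysed here. Levels are given in CPM, the share of a library's counts that a gene takes, after TMM scaling and on the usual CPM scale. Fold changes are log2 of mutant over WT, ± the standard error, so a positive value means a higher level in the mutant. A gene was called where the adjusted p of edgeR's quasi-likelihood test, over all genes fitted, was below 0.05.

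The 6 unheated libraries held 9143930 to 12516540 counts. Chloroplast genes took 62.6 ± 2.07% of the counts in the mutant and 61.9 ± 3.25% in WT (SD, n = 3 each, two-sided exact permutation p = 0.9). The smallest p that 3 against 3 can give is 0.1. Libraries of a group also stood apart along 1 component that held 53.9% of the variance within groups. Its score was negative in mutant library 1 and positive in mutant libraries 2 and 3, against negative in WT libraries 1 and 2 and positive in WT library 3. The mesophyll markers that define leaf tissue summed to 10730 to 15770 CPM in the mutant and 10210 to 17210 CPM in WT. Of 5 seed storage markers only 1 was in the table, at 0 to 0.0752 CPM in the mutant and 0 to 0.0676 CPM in WT, and root markers summed to 20.9 to 32.3 CPM in the mutant and 22.8 to 53.5 CPM in WT. Guard cell markers summed to 8.56 to 11.4 CPM in the mutant and 8.27 to 11.3 CPM in WT, trichome markers to 5.12 to 6.38 CPM in the mutant and 3.91 to 6.76 CPM in WT, and vascular markers to 154 to 162 CPM in the mutant and 141 to 158 CPM in WT. Flower markers summed to 0.815 to 1.96 CPM in the mutant and 0.301 to 0.889 CPM in WT, and meristem markers, of which 2 of 3 were at 0 in WT, to 1.58 to 2.72 CPM in the mutant and 1.22 to 2.05 CPM in WT.

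Without heat, 4 of the 16629 genes were called, which is 0.0241% of them. The Kelch F-box genes AT1G80440 and AT3G59940 and the trehalose-phosphate synthase gene TPS8 rose in the mutant, and AT2G36130 itself fell. The 3 higher genes are 0.018% and the 1 lower gene 0.00601% of those fitted. At an unadjusted p below 0.05 there were 398 genes (2.39%), 222 of them higher (1.34%) and 176 lower (1.06%). All 3 mutant libraries lay above all 3 WT libraries for 610 genes (3.67%) and below them for 501 (3.01%), together 1111 genes (6.68%). The median fold change of all genes fitted was 0.01.

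The AT2G36130 transcript checks the labels of the mutant. It had 1.05, 0.951 and 1.04 CPM in the 3 mutant libraries, from 13, 13 and 11 reads, against 6.29, 6.02 and 5.60 CPM in the 3 WT libraries, from 92, 99 and 62 reads. The groups lay far apart and each varied little, and the mutant kept a low number of reads in every library. The fold change was −2.55 ± 0.25 (edgeR adjusted p = 0.00348). In leaves sequenced in bulk, fewer cells of a type and less RNA per cell cannot be told apart. Without mutant library 3 the fold change was −2.56 with an edgeR adjusted p of 0.0525, just past the threshold. Scaling to library totals alone gave −2.66 with an edgeR adjusted p of 0.107.

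Of the 10 genes nearest to AT2G36130, 5 on each side, 5 had enough reads to be fitted. None of them was called by edgeR or by DESeq2, and none had an unadjusted p below 0.05. Their fold changes lay between 0.06 and 0.60.

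Kelch F-box proteins are the substrate-binding parts of ubiquitin ligases. Those encoded by AT1G80440, AT3G59940, AT2G44130 and AT1G15670 bind phenylalanine ammonia-lyase, the first enzyme of the phenylpropanoid pathway, for breakdown, and are also known to target type-B response regulators of cytokinin signalling. AT1G80440 had 3.23, 3.94 and 5.56 CPM in the mutant libraries, against 0.947, 1.39 and 0.711 CPM in the WT libraries. The lowest mutant library was above the highest WT library, on 42, 57 and 63 reads in the mutant and 13, 22 and 7 reads in WT. The fold change was 2.01 ± 0.27 (edgeR adjusted p = 0.0371). AT3G59940, at a higher level, had 39.8, 46.4 and 46.1 CPM in the mutant libraries, against 11.5, 20.6 and 13.2 CPM in the WT libraries. Its mutant libraries lay close together and above every WT library, with a fold change of 1.54 ± 0.22 (edgeR adjusted p = 0.0371).

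Of the other Kelch F-box genes, AT2G44130 and AT1G23390 missed the threshold. AT1G23390 encodes the Kelch F-box protein that binds chalcone synthase, the entry enzyme of flavonoid synthesis. It had 29.6, 25.9 and 39.4 CPM in the mutant libraries, against 5.75, 12.8 and 4.80 CPM in the WT libraries, a fold change of 2.00 ± 0.30 (edgeR adjusted p = 0.0512). AT2G44130 had 6.69, 4.01 and 8.78 CPM in the mutant libraries, against 1.22, 2.53 and 1.07 CPM in the WT libraries, a fold change of 1.96 ± 0.32 (edgeR adjusted p = 0.0837). For both genes the groups did not overlap, and WT library 2 was the highest of its group. AT1G15670 differed by 0.49, with overlapping libraries. DESeq2 called AT1G23390 at an adjusted p of 1.4e-06 and AT2G44130 at 1.06e-05.

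Transcripts of the phenylpropanoid enzymes did not pass the test. PAL1, a phenylalanine ammonia-lyase, had 108, 104 and 103 CPM in the mutant libraries, against 98.0, 82.9 and 69.9 CPM in the WT libraries, a fold change of 0.33 (edgeR adjusted p = 1). PAL2 averaged 98.5 ± 2.66 CPM in the mutant and 97.6 ± 9.66 CPM in WT (SD, n = 3 each). C4H, the hydroxylase that follows, averaged 106 ± 1.17 CPM in the mutant and 94.4 ± 6.88 CPM in WT, and its libraries did not overlap. Of the 14 Kelch F-box and phenylpropanoid entry genes 2 were called higher, against 0.018% of all genes fitted, and none lower. An unadjusted p below 0.05 went with a higher level in 4, against 1.34% of all genes fitted, and with a lower one in none. The list was chosen with earlier results of these data known. The median fold change of the list was 0.25, against 0.01 over all genes, and it was 0.14 with scaling to library totals and 0.49 without WT library 1.

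**Figure D1:**
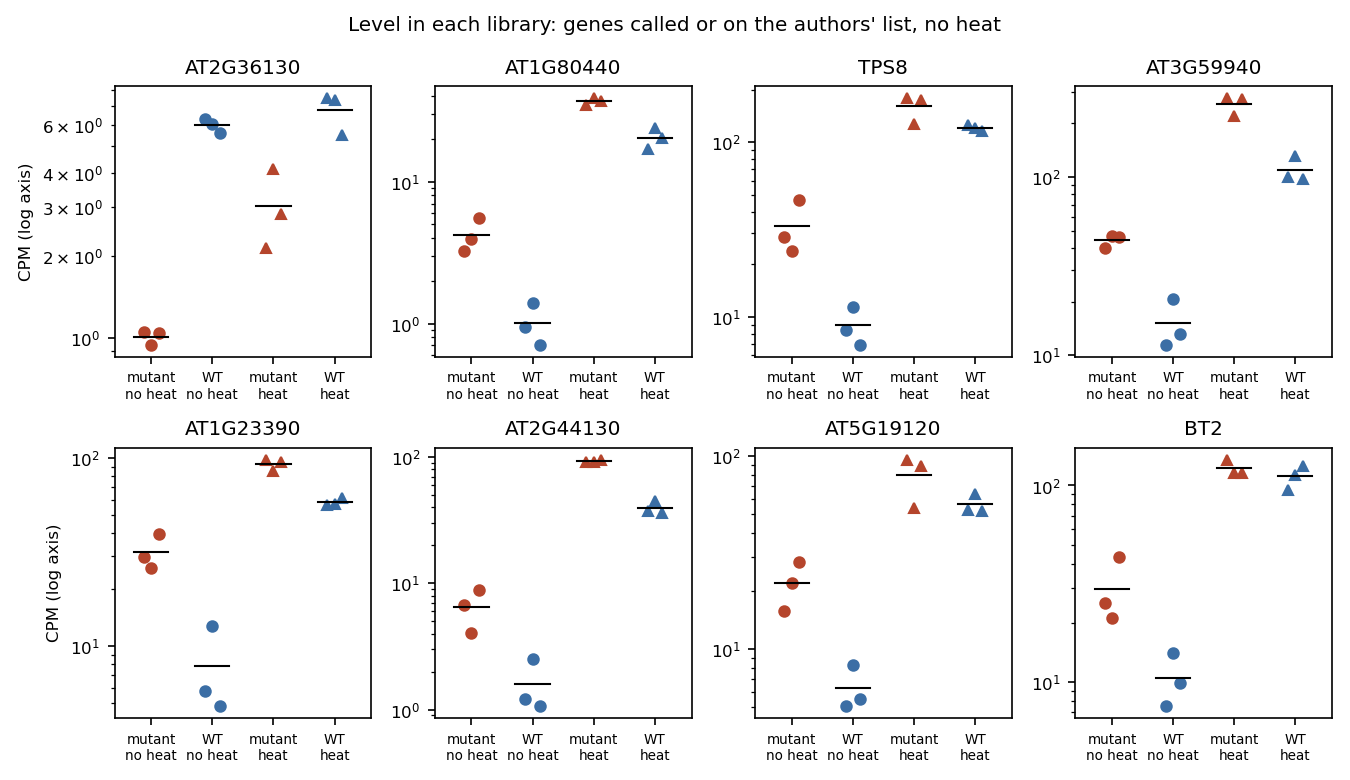
CPM (log axis) of the genes that were called or are on the authors' deposited list without heat, 1 point per library and a line at the mean, with the mutant left of WT in each pair and the heated pair to the right. Without heat the 3 mutant libraries lie below WT for AT2G36130 and above WT for the other 7 genes, and BT2 and AT5G19120 overlap after heat.

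TPS8 encodes a class II trehalose-phosphate synthase, a group of proteins whose genes respond to sugar supply. It had 28.7, 23.7 and 46.9 CPM in the mutant libraries, against 8.38, 11.4 and 6.93 CPM in the WT libraries. Mutant library 3 was highest, and every mutant library was above every WT library. The fold change was 1.88 ± 0.26 (edgeR adjusted p = 0.0371). All 3 genes called higher lost their call when WT library 1, WT library 3 or mutant library 3 was left out, with 0 genes called higher each time. Leaving out WT library 2 gave 9 genes called higher, leaving out mutant library 2 gave 2, with AT1G80440 and AT3G59940 no longer called, and leaving out mutant library 1 gave 3, without AT3G59940. Fitting the 6 unheated libraries alone gave 0.

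Genes that sugar represses are raised in darkness and starvation and are often read as markers of low carbon. The list read here also holds genes of energy signalling. Of its 29 members, all fitted, TPS8 was called higher, against 0.018% of all genes fitted, and none lower. An unadjusted p below 0.05 with a higher level was found for TPS8, TPS11, DIN10 and BZIP53, against 1.34% of all genes fitted, and these were picked out after their values were seen. TPS11, another class II trehalose-phosphate synthase, had 9.18, 10.12 and 15.03 CPM in the mutant libraries, against 6.76, 7.11 and 7.38 CPM in the WT libraries. DIN10, a dark-inducible raffinose synthase family gene, had 25.6, 28.7 and 28.5 CPM in the mutant libraries, against 19.6, 17.9 and 22.5 CPM in the WT libraries. Neither gene's groups overlapped, and the fold changes were 0.69 ± 0.20 and 0.46 ± 0.15 (edgeR adjusted p = 1 for both). The transcription factor BZIP53 averaged 35.0 ± 16.2 CPM in the mutant and 21.7 ± 4.86 CPM in WT (SD, n = 3 each), and the sugar transporter gene STP1 33.4 ± 6.27 CPM in the mutant and 31.9 ± 10.5 CPM in WT. Over all 16629 genes fitted the fold change was above 0 for 8476 and below 0 for 8149. In this list it was above 0 for 25 members and below 0 for 4, of which the lowest stood at −1.74. None of these 4 had an unadjusted p below 0.05. The median was 0.26, or 0.12 with scaling to library totals.

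The 250 bases before the annotated start of the transcript are shown for 7 genes, the 3 called higher and the other 4 listed as higher without heat in the authors' deposited table, so that their letters can be compared. They come from RefSeq, assembly TAIR10.1, 5′ to 3′ on the strand of the gene. The windows are chr1:30241202-30241451 on the plus strand for AT1G80440, chr1:26474834-26475083 on the minus strand for TPS8, chr3:22142650-22142899 on the plus strand for AT3G59940, chr1:8310917-8311166 on the minus strand for AT1G23390, chr2:18253360-18253609 on the plus strand for AT2G44130, chr5:6414238-6414487 on the plus strand for AT5G19120 and chr3:17910739-17910988 on the minus strand for BT2. Capitals mark matches, on either strand, to the G-box CACGTG, the ACTCAT element, the TATCCA element (written TGGATA on the other strand) and the evening element AAAATATCT.
AT1G80440: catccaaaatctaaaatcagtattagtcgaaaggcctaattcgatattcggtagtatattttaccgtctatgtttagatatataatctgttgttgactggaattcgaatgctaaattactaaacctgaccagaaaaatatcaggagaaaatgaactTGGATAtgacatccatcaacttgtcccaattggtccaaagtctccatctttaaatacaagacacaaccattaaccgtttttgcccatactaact
TPS8: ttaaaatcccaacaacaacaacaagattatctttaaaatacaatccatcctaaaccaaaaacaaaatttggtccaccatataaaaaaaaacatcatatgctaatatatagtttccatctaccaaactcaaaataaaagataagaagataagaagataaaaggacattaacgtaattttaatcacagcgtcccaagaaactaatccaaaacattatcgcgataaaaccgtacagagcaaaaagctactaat
AT3G59940: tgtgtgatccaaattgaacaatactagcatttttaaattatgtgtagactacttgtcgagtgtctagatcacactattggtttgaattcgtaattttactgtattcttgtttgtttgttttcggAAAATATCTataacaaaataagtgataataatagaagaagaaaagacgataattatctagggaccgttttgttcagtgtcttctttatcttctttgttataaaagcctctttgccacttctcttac
AT1G23390: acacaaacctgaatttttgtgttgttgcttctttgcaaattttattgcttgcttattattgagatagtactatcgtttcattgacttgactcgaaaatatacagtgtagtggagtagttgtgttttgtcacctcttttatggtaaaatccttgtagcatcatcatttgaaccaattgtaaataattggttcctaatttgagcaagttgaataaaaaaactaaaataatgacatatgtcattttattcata
AT2G44130: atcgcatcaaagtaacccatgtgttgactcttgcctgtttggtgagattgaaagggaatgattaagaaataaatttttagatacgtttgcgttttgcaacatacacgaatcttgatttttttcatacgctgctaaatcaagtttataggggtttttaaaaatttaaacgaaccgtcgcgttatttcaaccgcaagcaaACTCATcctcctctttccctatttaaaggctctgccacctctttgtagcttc
AT5G19120: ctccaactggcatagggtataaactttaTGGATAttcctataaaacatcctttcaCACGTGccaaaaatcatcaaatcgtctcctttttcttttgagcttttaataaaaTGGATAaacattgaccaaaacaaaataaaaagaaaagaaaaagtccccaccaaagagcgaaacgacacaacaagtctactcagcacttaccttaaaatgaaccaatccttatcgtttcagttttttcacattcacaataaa
BT2: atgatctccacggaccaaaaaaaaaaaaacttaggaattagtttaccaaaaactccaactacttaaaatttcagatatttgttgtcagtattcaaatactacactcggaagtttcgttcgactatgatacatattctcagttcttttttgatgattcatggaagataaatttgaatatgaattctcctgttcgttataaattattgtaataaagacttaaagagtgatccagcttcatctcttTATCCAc

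The G-box, bound by bZIP and bHLH factors, was in the window of AT5G19120 and in 7.82% of the windows of 16457 fitted nuclear genes. The ACTCAT element, bound by bZIP factors of the S1 group, was in that of AT2G44130 and in 11.7% of all windows. The TATCCA element, known from sugar-repressed amylase promoters of rice, was in those of AT1G80440, BT2 and, at 2 positions, AT5G19120, and in 14.1% of all windows. The evening element of clock-regulated genes was in that of AT3G59940 and in 2.41% of all windows. None of the 4 motifs was in the windows of TPS8 and AT1G23390. No motif was shared by all of the windows, and a match describes letters, not a bound site.

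Further genes came close to the threshold. AT5G19120, an aspartyl protease family gene, had 15.7, 21.9 and 28.2 CPM in the mutant libraries, against 5.07, 8.31 and 5.51 CPM in the WT libraries, a fold change of 1.79 ± 0.28 (edgeR adjusted p = 0.0536). AT5G25280, annotated as a serine-rich protein gene, had 30.5, 34.6 and 40.8 CPM in the mutant libraries, against 15.01, 19.0 and 13.1 CPM in the WT libraries, a fold change of 1.17 ± 0.18 (edgeR adjusted p = 0.0536). AT3G15450, annotated as an aluminum-induced protein gene, had 15.7, 17.3 and 25.1 CPM in the mutant libraries, against 6.08, 9.04 and 5.96 CPM in the WT libraries, a fold change of 1.45 ± 0.25 (edgeR adjusted p = 0.123). In all of these genes WT library 2 was the highest WT library and still below the lowest mutant library. BT2, a BTB and TAZ domain protein that acts in nitrogen use and in responses to sugars and hormones, had 25.2, 21.0 and 42.9 CPM in the mutant libraries, against 7.50, 13.9 and 9.87 CPM in the WT libraries. Its fold change was 1.504 ± 0.27 (edgeR adjusted p = 0.183).

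Among genes at 10 CPM or more whose groups did not overlap, the 10 with the largest fold change in each direction were also followed. On the higher side they added AT5G21940 at 1.37, AT2G20670 at 1.69 and MKK9, a kinase of the MAP kinase cascade, at 1.22, with edgeR adjusted p-values of 0.285, 0.603 and 1. On the lower side none was called. NUDT21, a Nudix hydrolase gene, had a fold change of −2.11 ± 0.55 (edgeR adjusted p = 0.799) and DIC2, a mitochondrial dicarboxylate carrier gene, −0.98 ± 0.42 (edgeR adjusted p = 1). CAF1a, a deadenylase of messenger RNA decay, stood at −0.69 and CGA1, a GATA factor of chloroplast development, at −0.68. The other 6, AT1G18740, CRF11, AT5G45060, DGK2, TIP and BRG3, lay between −0.72 and −0.57.

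**Figure D2:**
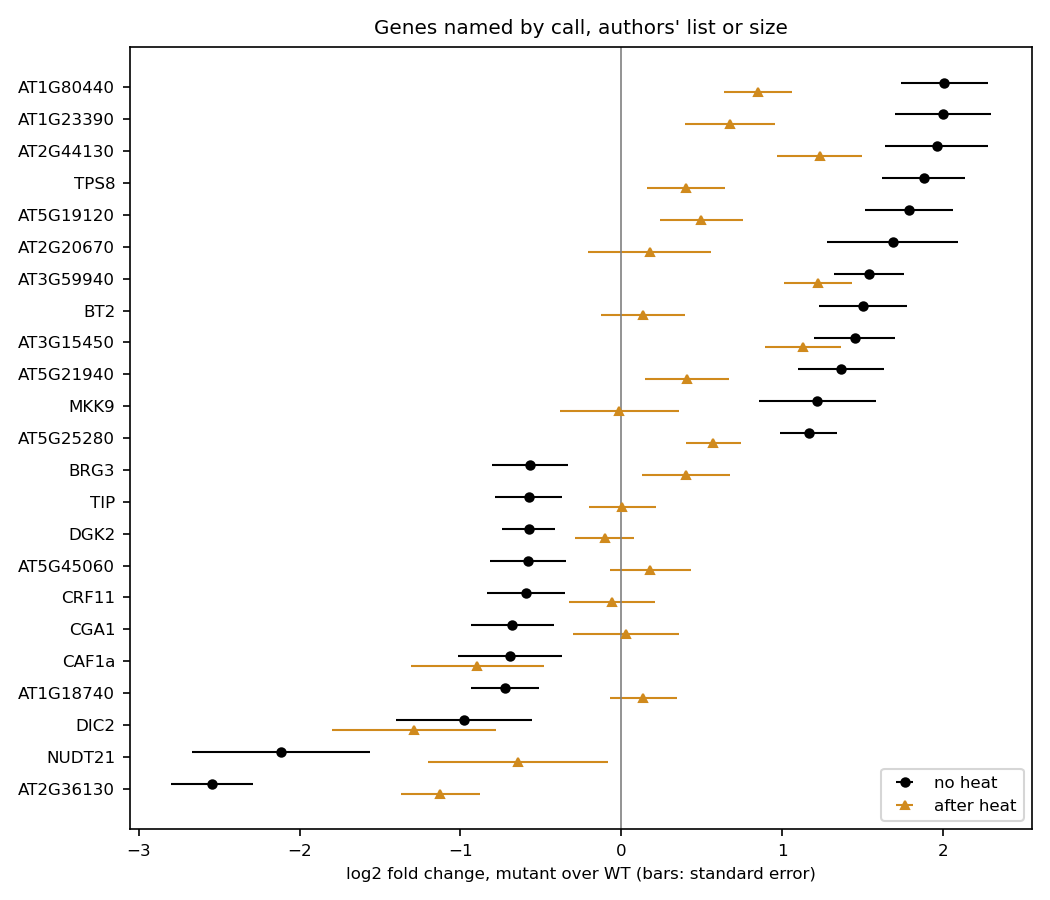
log2 fold change of mutant over WT (x axis, bars give the standard error) without heat (black circles) and after heat (orange triangles) for the 23 genes named by call, by the authors' list or by size. The genes above 0 without heat reach 2.01, AT2G36130 is lowest at −2.55, and most values after heat lie nearer to 0.

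The authors' deposited table for the same comparison lists 7 genes, 6 higher and 1 lower in the mutant. In the authors' deposited table the 6 are AT1G23390 at a log2 fold change of 2.02, AT2G44130 at 2.01, TPS8 at 1.89, AT5G19120 at 1.80, AT3G59940 at 1.54 and BT2 at 1.46, and the lower gene is AT2G36130 at −2.56. The fit gave the same signs for all 7, and 3 of them are among its 4 called genes, AT1G80440 being the exception. DESeq2, run on the same counts, called 14 genes higher (0.0788%) and 7 lower (0.0394%) of 17770 with an adjusted p, among them all 4 genes called by edgeR. Its lower genes include CBF2, a transcription factor of the cold response, which had 0.978, 0.747 and 1.13 CPM in the mutant libraries, against 3.79, 3.43 and 3.47 CPM in the WT libraries. The CBF2 groups did not overlap, at a fold change of −1.90 ± 0.41 in the edgeR fit (edgeR adjusted p = 0.439), and the gene is named here after its values were seen.

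Sulfate enters the leaf through SULTR transporters and is activated by ATP sulfurylase, the enzyme of the APS genes. The product, adenosine phosphosulfate, is also shortened to APS. Reduction follows by APS reductase (APR), which acts on this product, and by sulfite reductase (SIR). A set of small genes such as LSU and SDI marks sulfur deficiency. None of the 16 fitted genes of 18 on this list was called by edgeR or by DESeq2, with 8 at an unadjusted p below 0.05, all of them higher, against 1.34% of all genes fitted. The fold change was above 0 in 15, against 8476 of all 16629 genes, and below 0 in 1, against 8149. Its median on the list was 0.81, against 0.01 over all genes. The median stayed between 0.59 and 0.97 in every alternative run, and the groups did not overlap for 6 genes, all higher, against 3.67% of all genes fitted. The members at a low unadjusted p were picked out after their values were seen. The list itself, like the others here, was chosen with earlier results of these data known. Its counts are thus no independent test, and its members need not vary separately from each other.

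SULTR4;2, which moves sulfate out of the vacuole, had 3.01, 3.05 and 3.65 CPM in the mutant libraries, against 1.76, 1.63 and 1.60 CPM in the WT libraries. These groups stood apart, with a fold change of 0.95 ± 0.22 (edgeR adjusted p = 0.562). APR1, an APS reductase gene, had 39.2, 31.9 and 51.6 CPM in the mutant libraries, against 19.9, 27.2 and 19.4 CPM in the WT libraries. Its lowest mutant library lay just above its highest WT library, and the fold change was 0.88 ± 0.21 (edgeR adjusted p = 0.603). SHM7, a serine hydroxymethyltransferase gene that rises under sulfur deficiency, had 49.9, 28.4 and 45.3 CPM in the mutant libraries, against 18.4, 27.2 and 9.96 CPM in the WT libraries. The fold change of SHM7 was 1.15 ± 0.30 (edgeR adjusted p = 0.799), with mutant library 2 and WT library 2 nearly level.

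The deficiency marker AT1G04770 differed by 1.34, ATSDI1 by 1.29, LSU2 by 1.15, the glutathione-degrading AT5G26220 by 0.95 and APR3 by 0.74 (edgeR adjusted p = 1 for each). ATSDI1 had 3.31, 1.49 and 3.74 CPM in the mutant libraries, against 1.15, 1.87 and 0.267 CPM in the WT libraries, so mutant library 2 fell within the WT range. In APR1, APR3, SHM7, LSU2, ATSDI1 and AT1G04770 the lowest mutant library was library 2 and the lowest WT library was library 3, which have the highest component score of their groups. With the sign of that score as a block the median of the list was 0.80. The abundant members differed less: APR2 averaged 253 ± 9.11 CPM in the mutant and 211 ± 27.4 CPM in WT, SIR 228 ± 27.6 CPM in the mutant and 221 ± 12.7 CPM in WT, APS1 134 ± 34.3 CPM in the mutant and 114 ± 23.8 CPM in WT, and SULTR2;1 39.5 ± 2.83 CPM in the mutant and 35.3 ± 0.439 CPM in WT (SD, n = 3 each).

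**Figure D3:**
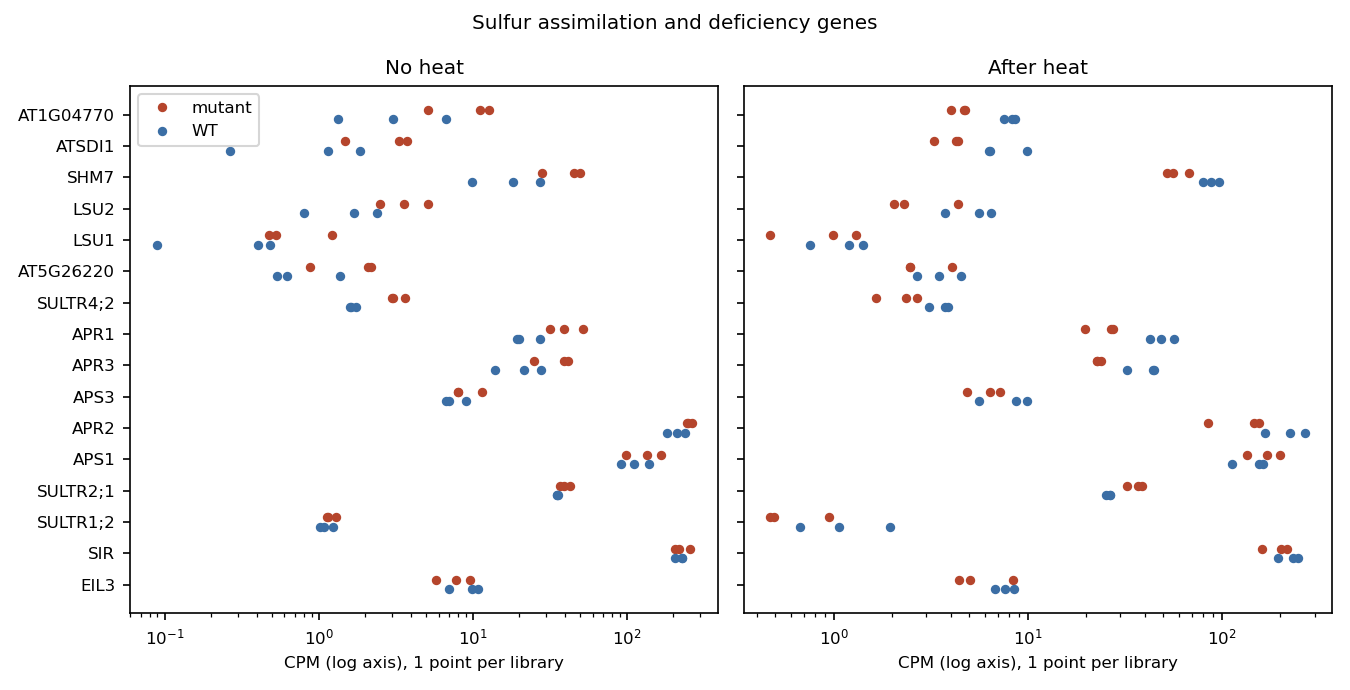
CPM (log axis), 1 point per library, of the 16 fitted sulfur genes without heat (left) and after heat (right), mutant in red above WT in blue, ordered by fold change without heat. On the left the red points of the upper rows lie mostly right of the blue ones, and on the right the order is turned for most of these rows.

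Glucosinolates hold sulfur, and their synthesis genes were little different. Of the 17 fitted aliphatic glucosinolate genes 16 had a fold change above 0, against 8476 of all 16629 genes. The list had a median of 0.14 and none called by edgeR or by DESeq2. Only GSTF11 had an unadjusted p below 0.05, with a fold change of 0.73 ± 0.31 (edgeR adjusted p = 1). The median was 0.01 with scaling to library totals. The 12 fitted indole glucosinolate and shared genes had a median of 0.10 and none at an unadjusted p below 0.05, and that median was −0.03 with library totals and −0.11 without mutant library 3. The myrosinase gene TGG1 averaged 716 ± 126 CPM in the mutant and 727 ± 178 CPM in WT (SD, n = 3 each). Of 13 fitted flavonoid and anthocyanin genes none was called by edgeR or by DESeq2, and FLS1, flavonol synthase, alone had an unadjusted p below 0.05, at 20.6 ± 0.616 CPM in the mutant and 15.6 ± 2.94 CPM in WT (SD, n = 3 each). Their median was 0.14, and it was −0.15 without mutant library 3 and 0.37 without WT library 1.

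Nitrate genes split. NIA2, the main nitrate reductase gene of the leaf, had 710, 776 and 762 CPM in the mutant libraries, against 921, 882 and 1089 CPM in the WT libraries, a fold change of −0.36 ± 0.15 (edgeR adjusted p = 1). LBD37, a repressor of nitrate-responsive genes, had 17.98, 21.8 and 24.7 CPM in the mutant libraries, against 11.6, 15.2 and 15.2 CPM in the WT libraries, a fold change of 0.62 ± 0.18 (edgeR adjusted p = 1). The groups did not overlap for either gene, and the 2 genes differed in opposite directions. Over the 13 fitted members, BT2 and LBD37 had an unadjusted p below 0.05 and a higher level (against 1.34% of all genes) and NIA2 a lower one (against 1.06%), and the median was 0.04, or −0.02 with library totals.

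Of 18 fitted clock genes, RVE1 and GI had an unadjusted p below 0.05, both higher, against 1.34% of all genes fitted, and none was called by edgeR or by DESeq2. RVE1, a morning MYB factor that links the clock to auxin, had 49.9, 54.1 and 55.4 CPM in the mutant libraries, against 34.1, 39.2 and 33.4 CPM in the WT libraries. GI, an afternoon gene, had 7.82, 7.94 and 7.91 CPM in the mutant libraries, against 5.14, 4.28 and 6.04 CPM in the WT libraries. Both sets of libraries stood apart, with fold changes of 0.58 ± 0.14 (edgeR adjusted p = 0.603) and 0.62 ± 0.20 (edgeR adjusted p = 1). LHY, a dawn gene, had 206, 194 and 198 CPM in the mutant libraries, against 248, 227 and 232 CPM in the WT libraries, again without overlap but in the other direction, at −0.24 ± 0.12. No overlap was found for 3.67% of all genes on the higher side and for 3.01% on the lower side. CCA1, its partner, averaged 144 ± 41.5 CPM in the mutant and 165 ± 37.7 CPM in WT (SD, n = 3 each). The labels do not give the hour of harvest.

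Few genes of splicing and protein folding had an unadjusted p below 0.05. Of the 9 nuclear cyclophilin genes AT2G36130 was the only one called or at an unadjusted p below 0.05, and CYP71 averaged 9.67 ± 3.92 CPM in the mutant and 10.3 ± 2.23 CPM in WT (SD, n = 3 each). None of the 19 other cyclophilin genes was called by edgeR or by DESeq2 or had an unadjusted p below 0.05, and ROC4, a chloroplast cyclophilin, averaged 295 ± 13.3 CPM in the mutant and 253 ± 13.7 CPM in WT. The same held for the 19 fitted SR splicing factor genes, whose median was 0.09, or −0.00 with library totals. SR34 averaged 25.3 ± 0.854 CPM in the mutant and 24.5 ± 1.92 CPM in WT. Of 30 spliceosome genes 1, AT1G20580, an Sm protein gene of the spliceosome core, had an unadjusted p below 0.05, at a fold change of −0.40 ± 0.16 (edgeR adjusted p = 1). MAC3B, a gene of the complex that activates the spliceosome, averaged 39.7 ± 1.13 CPM in the mutant and 38.9 ± 1.39 CPM in WT. The 38 heat shock genes had a median of 0.09, or −0.00 with library totals, and HSF4, a heat shock factor, alone had an unadjusted p below 0.05, at −0.76 ± 0.27 (edgeR adjusted p = 1). HSC70-1, the abundant cytosolic chaperone, averaged 899 ± 150 CPM in the mutant and 830 ± 194 CPM in WT (SD, n = 3 each). The groups did not overlap for 2 of the other cyclophilin genes, ROC4 among them, and for 4 heat shock genes. All of these were higher, against 3.67% of all genes fitted. For 3 spliceosome genes the groups also stood apart, all lower, against 3.01% of all genes fitted.

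All 28 nuclear photosynthesis genes had a fold change above 0, against 8476 of all 16629 genes. The median of the 28 was 0.15, and none of them was called by edgeR or by DESeq2. CAB1, a light-harvesting protein gene, averaged 6492 ± 1307 CPM in the mutant and 5822 ± 2121 CPM in WT (SD, n = 3 each), so the difference lay within the spread. LHCB4.3 had an unadjusted p below 0.05, at 19.0 ± 3.24 CPM in the mutant and 13.7 ± 1.91 CPM in WT. The median was 0.00 with the component score as a block and 0.37 without WT library 3. The 9 fitted auxin response genes all lay below 0, against 8149 of all 16629 genes. The median of the 9 was −0.23 and stayed between −0.46 and −0.22 over the alternatives. BRU6, an enzyme that ties auxin to amino acids, was at 1.06 ± 0.0892 CPM in the mutant and 1.88 ± 0.665 CPM in WT, and alone had an unadjusted p below 0.05. Among 21 light and chloroplast development regulators PIF4 had an unadjusted p below 0.05 and a higher level, at 2.21 ± 0.286 CPM in the mutant and 1.39 ± 0.367 CPM in WT, and CGA1 a lower one.

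**Figure D4:**
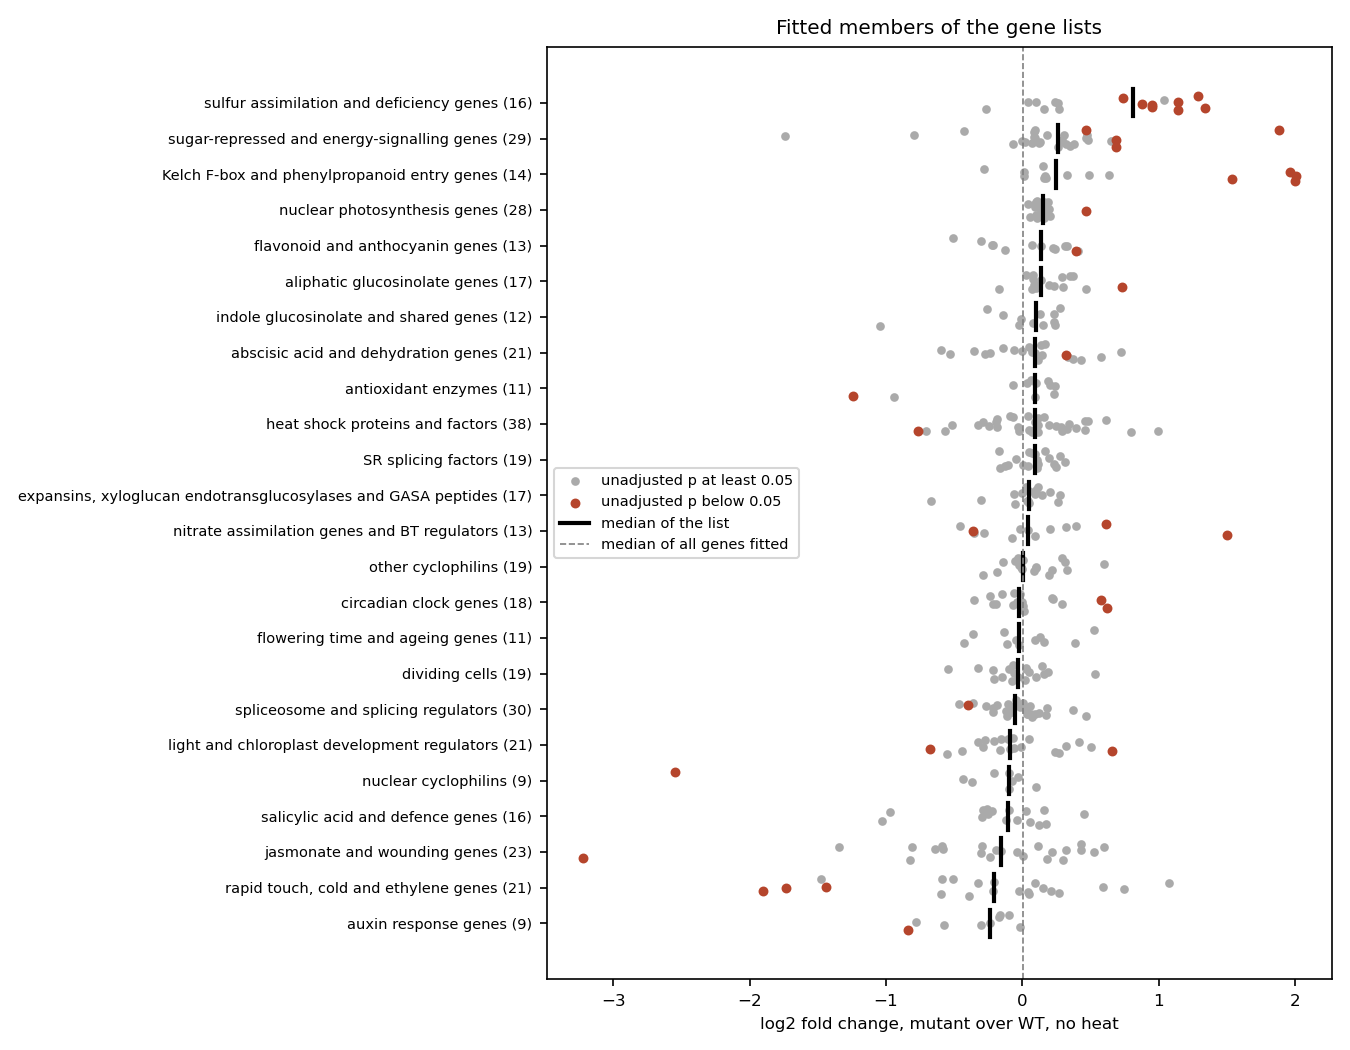
log2 fold change of mutant over WT without heat for the fitted members of each nuclear gene list (number in brackets), 1 point per gene, red below an unadjusted p of 0.05, with the list's median as a black bar and the median of all genes as a dashed line. The sulfur list has the highest median, 0.81, and the auxin list the lowest, −0.23.

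Stress and hormone lists spread widely between libraries. The rapid touch, cold and ethylene list had 3 of 21 fitted genes at an unadjusted p below 0.05, all lower, CBF2, ERF11 and WRKY40, against 1.06% of all genes fitted. ERF11, an ethylene response factor, averaged 0.705 ± 0.277 CPM in the mutant and 1.91 ± 0.410 CPM in WT. WRKY40, a defence regulator, had 2.33, 0.611 and 3.91 CPM in the mutant libraries, against 11.6, 8.73 and 1.78 CPM in the WT libraries, which overlap. The median of the list was −0.21, and it was −0.75 without mutant library 3 and 0.13 without mutant library 2. DESeq2 also called RRTF1, a redox-responsive transcription factor gene of this list with too few reads for the edgeR fit, lower in the mutant at −4.34 (DESeq2 adjusted p = 0.0265). Of 23 jasmonate and wounding genes PDF1.2, a defensin gene, alone had an unadjusted p below 0.05. It had 0.150, 0.475 and 1.74 CPM in the mutant libraries, against 19.7, 1.20 and 0.356 CPM in the WT libraries, so WT library 1 set the difference. No salicylic acid and defence gene of 16 had an unadjusted p below 0.05, and the median of −0.11 was −0.33 without WT library 3 and 0.28 without WT library 1. Of 21 abscisic acid and dehydration genes RD22 alone had, at 98.0 ± 6.33 CPM in the mutant and 78.3 ± 9.06 CPM in WT (SD, n = 3 each).

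The remaining lists held few differences. None of the 19 cell division genes, the 17 expansin, xyloglucan endotransglucosylase and GASA genes and the 11 flowering time and ageing genes was called by edgeR or by DESeq2 or had an unadjusted p below 0.05. Their medians were −0.03, 0.05 and −0.02, and they moved with the libraries and the scaling. The division list was at −0.14 with library totals and 0.04 without mutant library 3, the expansin list at −0.04 with library totals and 0.21 without WT library 3, and the flowering and ageing list at −0.16 without mutant library 1 and 0.37 without WT library 1. Among 11 antioxidant enzyme genes GSTF7 alone had an unadjusted p below 0.05, with a fold change of −1.24 ± 0.47 and overlapping libraries. The 88 chloroplast genome genes had a median of −0.03, and the 83 fitted mitochondrial genome genes 0.12.

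The same genes were read after heat, in libraries that the comparison without heat does not contrast. There 37 genes were called (0.223%), 27 higher (0.162%) and 10 lower (0.0601%), and at an unadjusted p below 0.05 936 were higher (5.63%) and 817 lower (4.91%). Of the 4 genes called without heat, AT3G59940 was also called, at 257 ± 31.4 CPM in the mutant and 110 ± 19.0 CPM in WT (SD, n = 3 each), a fold change of 1.23 ± 0.21 (edgeR adjusted p = 0.0377). AT1G80440 averaged 37.0 ± 1.96 CPM in the heated mutant and 20.5 ± 3.46 CPM in heated WT, a fold change of 0.85 ± 0.21 (edgeR adjusted p = 0.141). TPS8 averaged 160.3 ± 28.2 CPM in the heated mutant and 121 ± 4.39 CPM in heated WT, a fold change of 0.40 ± 0.24 (edgeR adjusted p = 0.632). AT2G36130 averaged 3.03 ± 1.01 CPM in the heated mutant and 6.79 ± 1.10 CPM in heated WT, a fold change of −1.13 ± 0.24 (edgeR adjusted p = 0.105). In each of the 4 genes the heated libraries of the genotypes did not overlap. The share of all genes without overlap after heat was not computed, so how common this is there is not known. Of the 12 named genes above 0 without heat, 11 were above 0 after heat, and of the 11 below 0, 6 were below 0 after heat. Over all genes fitted 51% were above 0 after heat.

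Whether the genotypes differed otherwise after heat than without it was tested as the difference of both contrasts. No gene was called by edgeR, with 910 at an unadjusted p below 0.05 (5.47%), and DESeq2 called 20. On the sulfur list 8 of 16 genes had an unadjusted p below 0.05 for that difference, and the lowest edgeR adjusted p was 0.298, that of APR1. APR1 had 27.0, 19.7 and 27.3 CPM in the heated mutant libraries, against 56.8, 48.3 and 42.5 CPM in the heated WT libraries, so the order of the groups was the reverse of that without heat. The heated fold change was −0.998 and the difference of the contrasts −1.88. SULTR4;2 had 1.65, 2.36 and 2.67 CPM in the heated mutant libraries, against 3.88, 3.75 and 3.09 CPM in the heated WT libraries, also reversed and without overlap. The median of the sulfur list was −0.62 after heat, with 2 genes above and 14 below 0, and 1 higher and 4 lower at an unadjusted p below 0.05.

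After heat the Kelch F-box and phenylpropanoid list had a median of −0.45. The F-box genes AT2G44130 and AT1G23390 were again higher in the mutant libraries, at 92.5 ± 2.29 CPM in the heated mutant and 39.3 ± 4.47 CPM in heated WT, and at 92.9 ± 6.44 CPM in the heated mutant and 58.1 ± 2.50 CPM in heated WT (SD, n = 3 each). Neither passed the test after heat, and PAL1 fell there, at a fold change of −0.89 (edgeR adjusted p = 0.0381). The sugar-repressed and energy-signalling list had a median of 0.37 after heat. DIN10 rose, with 249.9, 215 and 223 CPM in the heated mutant libraries, against 72.7, 66.5 and 84.1 CPM in the heated WT libraries, a fold change of 1.62 (edgeR adjusted p = 0.00112), larger than the 0.46 without heat. The difference between both contrasts of DIN10 was not called.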

How the data were processed

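Counts were taken as deposited by the authors in a table of the whole series, whole numbers per transcript under a raw data header, per the file headers. The lowest deposited count is 1, so every value carries 1 added read. Printed read numbers have it subtracted, whereas CPM include it. Per the submitters' processing notes, HTSeq and DESeq were used. Not given in the sources used here: aligner, genome build and whether strand was counted, so overlapping, antisense and near-identical genes are uncertain. The log2 fold changes and adjusted p-values of the authors' deposited table were only set beside the fit, and 12 columns of normalized values by the authors were not used.

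The table has 51792 rows, of which 8624 are assembled transcripts. The planned design assumed counts per gene and was kept, with 1 annotated transcript for each gene. All 42958 nuclear annotated transcript identifiers are in the RefSeq annotation of TAIR10.1, which gave positions and sequences.

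With TMM scaling and filterByExpr, edgeR 4.0.16 (R 4.3.3) gave the quasi-likelihood tests, in 1 fit of 12 libraries with a coefficient per group and 8 residual degrees of freedom, and adjusted by the Benjamini-Hochberg method. DESeq2 1.42.0 was an alternative. The method was tested on simulated counts, drawn separately for each gene and library and so without the component within groups. At a true log2 fold change of −1 it called 14 of 50 genes, and at 1 it called 13 of 50. At −2 it called 45 of 50 and at 2 46 of 50, with 8 false calls among 16207 unchanged genes. The changed genes were drawn only from those above a minimum mean count, so these rates do not cover genes with few reads. A gene that was not called may thus still differ. Other alternatives were RLE and library-total scaling, nuclear genes only, no filter, 6 libraries only, a replicate block, chloroplast share as a covariate, assembled transcripts, 1 read subtracted, a fold threshold and each unheated library left out. A block by component score was chosen after seeing the data. Nuclear genes held 3399532 to 4370749 counts per unheated library. Libraries of a group differed by a chi-square per degree of freedom of at least 2.69, and of at least 5.53 in the unheated groups. Such scatter goes beyond that of counting but does not show that the libraries came from separate plants. Each library was counted as 1 sample.

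Genes were named if called, on the authors' list, among the 4 most abundant of a list, or among the 10 largest fold changes in each direction at 10 CPM or more with no overlap. Members and lists were chosen with earlier results of these data known.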

Additional observations from a re-analysis of the deposited data

How the results depend on the processing

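The direction of AT2G36130 and of the other genes named by call, authors' list or size held in every alternative run. So did that of list members at an unadjusted p below 0.05, but the number of calls moved. Apart from AT2G36130, these genes were chosen by their values in the same libraries that the alternatives refit. Their kept direction is thus no separate evidence. Of the 88 abundant list members named by level alone, 53 changed sign in at least 1 alternative, 19 of them with library totals, and none was called by edgeR or DESeq2 in any. With the fit as reported 3 genes were called higher and 1 lower. Both counts were 0 with library totals alone, which moved the median of all genes to −0.10, and 0 against a log2 fold change of 1. They were 6 and 1 with nuclear genes alone, 14 and 7 with DESeq2, 31 and 16 with the chloroplast share as a covariate, and 44 and 24 with the component block. With only the 6 unheated libraries they were 0 and 1. The replicate block also gave 0 and 1. Whether equal replicate numbers pair the samples is not known. Deviations of same-numbered libraries correlated at 0.39, −0.43 and 0.22 without heat and at 0.31, −0.41 and −0.44 after heat. These deviations also hold the component within groups, so the correlations cannot decide it. Leaving out 1 library gave 0 to 9 genes higher and 0 to 3 lower. RLE scaling, assembled transcripts and 1 read subtracted kept 3 and 1, and no filter gave 4 and 1. The log2 fold change of the AT2G36130 transcript was −2.66 with library totals (edgeR adjusted p = 0.107) and −2.55 against the fold threshold (edgeR adjusted p = 0.0652), −2.58 to −2.50 with 1 library left out, and −2.66 to −2.50 over all alternatives. It was called in 15 of 18 alternatives, TPS8 in 11, AT1G80440 in 10 and AT3G59940 in 9. The difference of the contrasts gave 20 calls with DESeq2, 165 with the covariate and 179 with the component block, and 0 otherwise. Of the 4 genes called without heat, 1 was also called after heat, against 3 with DESeq2, the covariate or the component block, 0 with library totals, no filter or the replicate block, and 0 to 1 with a library left out. The cause of these shifts was not tested. Library totals also turned the sign of the medians of the other cyclophilins (−0.09), the SR factors (−0.00), heat shock (−0.00), indole glucosinolate (−0.03), nitrate (−0.02), abscisic acid (−0.03), expansin (−0.04) and antioxidant (−0.04) lists. Genes under about 2 CPM rest on few reads, and 3 libraries a group limit the precision of every call.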
